A study of Mus musculus with 11 samples.

Results

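The 9 genes described here carry out the uptake, sensing and first metabolic step of short-chain fatty acids in the colon of mice. They were chosen by name from the deposited count table of 43346 genes, and all 9 were found and passed the filter on low counts. They fall into carriers and their partner (Slc16a1, Slc16a3, Slc5a8 and Bsg), receptors (Ffar2, Ffar3 and Hcar2) and acetate-activating enzymes (Acss1 and Acss2). RNA of colon tissue came from male Swiss Webster mice, an outbred stock with no engineered allele named in the labels, of which 5 were germ-free and 6 humanized and all were 8 to 10 weeks old. The humanized mice were raised germ-free and received 300 μL of a human stool suspension by oral gavage at 4 to 5 weeks of age. All 6 received stool from a single donor, so these mice model 1 human community, and both groups ate an autoclaved diet and were housed singly in isolators.

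Short-chain fatty acids, chiefly acetate, propionate and butyrate, are made by gut bacteria that ferment fibre, and a germ-free colon has very little of them. Colonocytes take them up with protons through MCT1 (Slc16a1) or with sodium through SMCT1 (Slc5a8) and oxidise much of the butyrate in their mitochondria. A part of the signal is read on the cell surface by the receptors FFAR2, FFAR3 and HCAR2, and acetate that has entered a cell is joined to coenzyme A by ACSS1 in mitochondria or by ACSS2 in the cytosol and nucleus.

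Reads counted on genes numbered 49097005 to 64148538 per germ-free mouse and 39125290 to 54219854 per humanized mouse. Levels are given as TMM-normalized RPKM (reads per kilobase of the deposited gene length, scaled to a common library size), and differences as the log2-fold change (LFC) of humanized over germ-free mice. A gene was called at FDR below 0.01 in edgeR's exact test over all 19863 genes that passed the filter. The labelled tissue was checked with marker genes, of which all 11 epithelial markers were detected at a summed 9289 to 12470 CPM (counts scaled to a common library size) in germ-free and 10640 to 14880 CPM in humanized mice. Smooth muscle markers, by contrast, were called lower in humanized mice for 9 of 9 genes (4 in the quasi-likelihood test and 5 without germ-free mouse 4), with a summed level of 677 to 2042 CPM in germ-free and 87.2 to 726 CPM in humanized mice. Enteric neuron markers were lower for 6 of 7 genes, and plasma and B cell markers were higher for 4 of 6. In whole tissue, a change in the number of cells of a type and a change in the RNA per cell cannot be told apart.

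Of the 9 genes, 3 were called, all higher in humanized mice, namely Slc16a1, Slc5a8 and Bsg. Among all genes tested, 19.3% were called, 9.2% higher and 10.1% lower. None of the 9 was called lower, with 0 also in the quasi-likelihood test and in DESeq2. The calls depended on library scaling, with 1 higher and 0 lower when libraries were scaled to the geometric mean of 8 surface colonocyte markers (1.65% and 11% of all tested genes), and 0 higher and 4 lower with the sum of these markers, under which 78.1% of all tested genes were called lower. At an unadjusted p under 0.05 in the exact test, 6 of the 9 passed, all 6 of them higher, where 37.4% of all tested genes passed and 18.5% did so as higher. These 3 were also the ones whose values did not overlap between the groups, as was the case for 18.4% of all genes tested. The median LFC was 0.47 over the 9 genes and 0.01 over all genes tested.

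**Figure D1:**
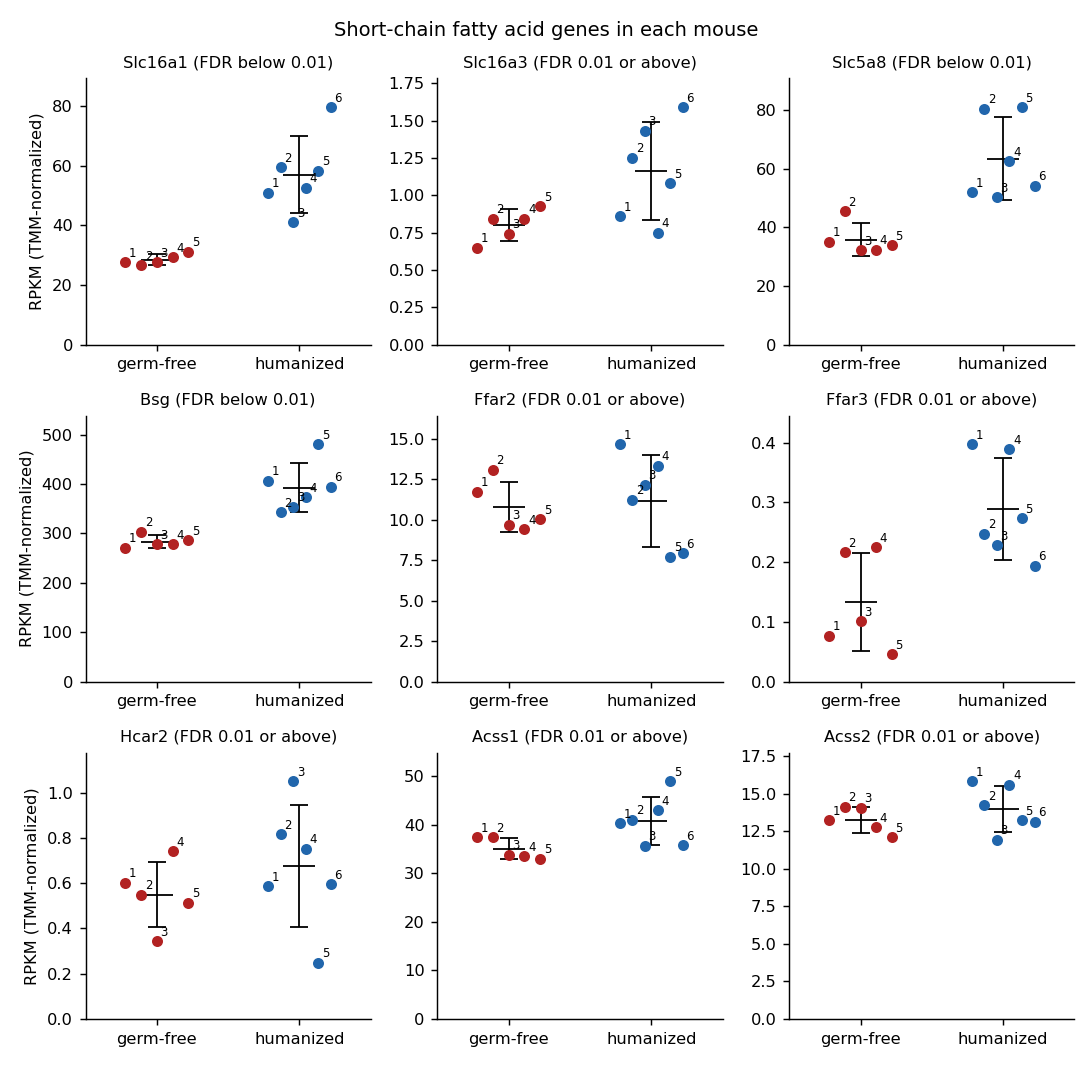
Level of each of the 9 genes in RPKM on linear axes from 0, with a point for each germ-free mouse (red, n = 5) and humanized mouse (blue, n = 6), numbered by mouse. Black bars show the mean ± SD of a group. In Slc16a1, Slc5a8 and Bsg every humanized mouse lies above every germ-free mouse, and in the other 6 panels the groups overlap.

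The sequence upstream of Slc16a1 and Slc5a8 is shown because these carriers differed most between the groups among the 4 genes of carriers and their partner named above. Each is the 250 bases before a start site of the RefSeq annotation (GRCm38.p6), and capitals mark exact matches, on either strand, of the E-box CACGTG and the GC box GGGCGG. The Slc16a1 stretch is chr3:104638414-104638663 on the plus strand, with the E-box at −200 and the GC box at −85. The Slc5a8 stretch is chr10:88885742-88885991, also on the plus strand, with GC boxes at −154, −145 and −18, all read on the opposite strand.
Slc16a1: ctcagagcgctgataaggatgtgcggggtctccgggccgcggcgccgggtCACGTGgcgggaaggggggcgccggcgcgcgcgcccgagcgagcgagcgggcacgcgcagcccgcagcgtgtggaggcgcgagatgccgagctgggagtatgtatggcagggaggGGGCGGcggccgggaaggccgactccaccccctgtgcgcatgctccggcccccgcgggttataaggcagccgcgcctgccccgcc
Slc5a8: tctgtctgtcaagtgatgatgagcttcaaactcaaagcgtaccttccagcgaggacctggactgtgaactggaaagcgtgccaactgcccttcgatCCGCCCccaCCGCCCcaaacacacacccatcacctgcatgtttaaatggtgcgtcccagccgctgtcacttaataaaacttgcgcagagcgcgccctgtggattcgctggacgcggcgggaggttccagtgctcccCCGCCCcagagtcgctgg

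Of 32851 RefSeq windows, each reaching from 250 bases before to 50 bases after a start, 7.15% hold the E-box and 35.7% the GC box. The CCAAT box CCAAT, the TATA box TATAAA and the cAMP response element TGACGTCA were searched as well, and neither carrier's window holds any of them. They occur in 37.4%, 13.6% and 1.79% of all windows. None of these motifs overlaps another in the stretches printed. The Slc16a1 window is 73.7% G or C and that of Slc5a8 60.7%, against a median of 52.7% over all windows. Windows were given for 7 of the 9 genes, not for Bsg and Hcar2. A match of letters is a description and was not related to binding.

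Slc16a1, which encodes the proton-coupled carrier MCT1, lies at chr3:104638668-104658462 (mm10) with 5 exons. Its level in the 5 germ-free mice was 27.6, 26.6, 27.6, 29.4 and 31.1 RPKM. In the 6 humanized mice it ran from 40.9 through a median of 55.4 to 79.6 RPKM. The lowest humanized mouse therefore stood above the highest germ-free mouse, and the humanized mice were the more scattered group, with a coefficient of variation of 22.7% against 6.28%. The median coefficient of variation over all tested genes was also higher in humanized mice, at 16.5% against 10.4%. The mean of Slc16a1 was 28.4 ± 1.79 RPKM (SD, n = 5) in germ-free and 57.0 ± 12.9 RPKM (SD, n = 6) in humanized mice. This 2.003-fold difference (LFC 1.002, SE 0.14, FDR = 1.47e-10, edgeR exact test) was the largest of the 3 called genes and moved the gene from the 89.4th to the 94.3rd percentile of tested genes by level. It was 0.73 when libraries were scaled to the 11 epithelial markers (FDR = 1.15e-07), 0.66 when scaled to the geometric mean of 8 surface colonocyte markers (FDR = 0.000127), 0.080 when scaled to their sum, where it no longer passed (FDR = 0.564), and 0.84 without humanized mice 5 and 6 (FDR = 3.61e-14).

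Slc5a8 encodes SMCT1, the sodium-coupled carrier of the apical membrane, and lies at chr10:88885992-88929505 with 15 exons. Germ-free mice had 35.1, 45.6, 32.3, 32.4 and 34.0 RPKM. Humanized mice ran from 50.3 through a median of 58.3 to 81.1 RPKM. Germ-free mouse 2 stood well above its group, yet still below the lowest humanized mouse. The LFC was 0.82 (SE 0.15, FDR = 2.96e-06, edgeR exact test), from 35.9 ± 5.57 (SD, n = 5) to 63.4 ± 14.1 RPKM (SD, n = 6). The LFC was 0.57 with epithelial scaling (FDR = 0.00457) and 0.52 with the geometric mean of surface colonocyte markers, where the FDR of 0.0438 no longer passed. With the sum of these markers it turned to −0.058 (FDR = 0.769).

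Bsg encodes basigin, the membrane glycoprotein that escorts MCT1 and MCT4 to the cell surface, and lies at chr10:79704491-79711969. It was the most abundant of the 9 genes, at the 99.4th percentile of tested genes in germ-free mice. Germ-free mice had 271, 304, 279, 278 and 287 RPKM, while humanized mice ran from 343 through a median of 384 to 481 RPKM. Every humanized mouse was higher than every germ-free mouse, with a mean of 392 ± 49.5 RPKM (SD, n = 6) against 284 ± 12.7 RPKM (SD, n = 5). The LFC of 0.47 (SE 0.09, FDR = 1.41e-05, edgeR exact test) was the smallest of the 3. It fell to 0.21 with epithelial scaling (FDR = 0.102) and to 0.15 with the geometric mean of surface colonocyte markers (FDR = 0.478), neither of which passed, and it was −0.42 and called lower (FDR = 0.00479) with the plain sum of those markers, a scaling described below that called 78.1% of all tested genes lower.

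Slc16a3 encodes MCT4, a carrier associated with lactate export from glycolytic cells, and lies at chr11:120948480-120960868. Its level was low, at 0.650, 0.844, 0.743, 0.843 and 0.925 RPKM in germ-free mice and from 0.749 through a median of 1.17 to 1.59 RPKM in humanized mice. The groups overlapped, since humanized mice 1 and 4 lay within the germ-free range. The LFC was 0.54 (SE 0.19, 95% interval 0.12 to 0.95, FDR = 0.0534, edgeR exact test) and did not pass the threshold.

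Within a mouse, the level of one gene can be set against another without regard to library scaling, and such a ratio was called at an adjusted p below 0.05. The ratio of Slc16a1 to Bsg had a geometric mean of 0.1002 in germ-free and 0.143 in humanized mice, ranges of 0.0874 to 0.108 and 0.116 to 0.202 that did not overlap, and a log2 difference of 0.52 (exact permutation test over mice, two-sided p = 0.00649, 0.0162 adjusted over 5 ratios, n = 5 and 6). The carrier thus rose more than its partner. The ratio of Slc5a8 to Slc16a1 was 1.25 in germ-free and 1.11 in humanized mice, and the log2 difference of −0.17 did not pass (exact permutation p = 0.481, adjusted 0.481). It was −0.026 without humanized mouse 6 and −0.23 without humanized mouse 5. The ratio of Slc16a3 to Slc16a1 was 0.0281 and 0.0201, with a log2 difference of −0.48 (exact permutation p = 0.0519, adjusted 0.0865). Without humanized mouse 3, the one with the least Slc16a1, this difference was −0.64 and passed at an adjusted exact permutation p = 0.0198.

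Slc16a1 took a larger part of its own family, a share that rests on the same counts as its LFC and is no separate evidence. Over the 14 Slc16a genes of the table, summed RPKM was 90.3 ± 3.39 (SD, n = 5) in germ-free and 117 ± 16.7 (SD, n = 6) in humanized mice. Slc16a1 held a share of this sum of 31.5% ± 1.21 in germ-free and 48.3% ± 4.77 in humanized mice. No mouse of one group had a share within the range of the other, 29.9% to 33.0% against 43.1% to 55.9%. Slc16a5, which encodes MCT6 and had the highest mean level of the family in germ-free mice, held 35.5% ± 2.39 there and 24.0% ± 3.62 in humanized mice. Its germ-free shares of 31.5% to 37.0% overlapped those of Slc16a1, which was ahead in germ-free mouse 1 (32.2% against 31.5%). The level of Slc16a5 itself was not called (FDR = 0.315, edgeR exact test). Slc16a3 stayed near 1 percent, at 0.885% ± 0.0920 and 1.003% ± 0.305.

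**Figure D2:**
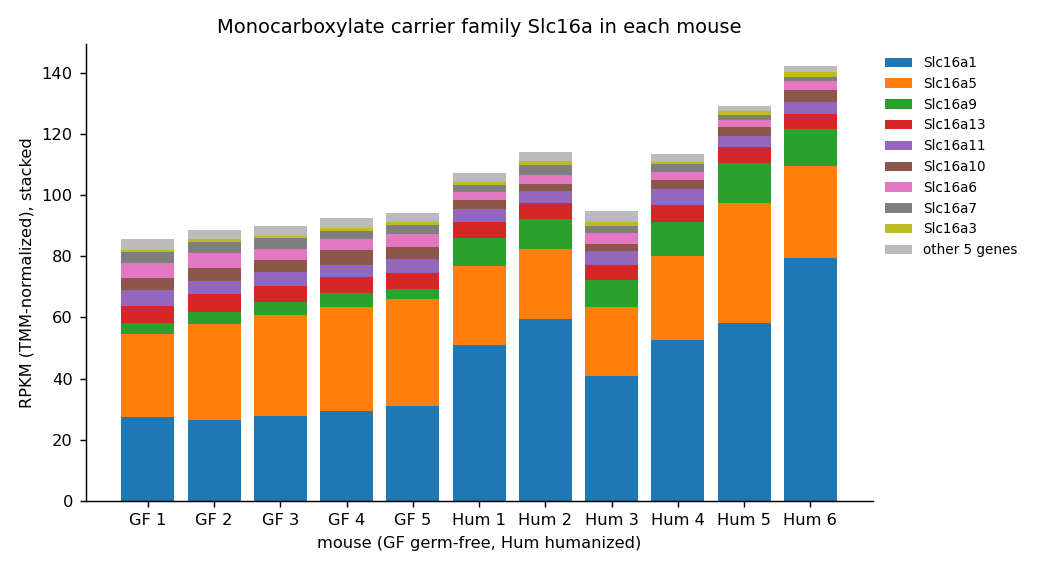
Summed RPKM of the 14 Slc16a genes in each germ-free (GF) and humanized (Hum) mouse, stacked by gene. The Slc16a1 segment at the base is between 40.9 and 79.6 RPKM in the humanized mice and between 26.6 and 31.1 RPKM in the germ-free mice, while the Slc16a5 segment changes little in comparison.

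Of the 3 receptors, none was called in the exact test, and Ffar3 alone had an unadjusted p under 0.05 (0.00729). Ffar2 encodes FFAR2 (GPR43), a receptor of acetate and propionate known from enteroendocrine cells and leukocytes, and lies at chr7:30818348-30823775. Germ-free mice had 11.7, 13.1, 9.70, 9.41 and 10.0 RPKM, and humanized mice ran from 7.72 through a median of 11.7 to 14.7 RPKM. The humanized range enclosed the germ-free range on both sides, since humanized mice 5 and 6 lay below all germ-free mice and mice 1 and 4 above. The LFC was 0.05 (SE 0.17, 95% interval −0.31 to 0.41, FDR = 0.875, edgeR exact test), and it turned to −0.13 with total counts and −0.18 with epithelial scaling, neither of which passed, and to −0.79 with the sum of surface colonocyte markers, which did (FDR = 0.00248). With that sum 78.1% of all tested genes were called lower, and the median LFC over all tested genes was −0.87. Without humanized mice 5 and 6, a setting added after seeing the data, the LFC of Ffar2 was 0.25 (FDR = 0.115). That rise follows from leaving out the lowest values of the group.

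Ffar3 encodes FFAR3 (GPR41), a receptor of propionate and butyrate known from enteroendocrine cells and peripheral neurons, and lies at chr7:30854330-30856178, 30.6 kb from Ffar2. It was the least abundant of the 9 genes and rested on 6 to 28 reads per mouse. Germ-free mice had 0.0772, 0.217, 0.102, 0.225 and 0.0464 RPKM, and humanized mice ran from 0.194 through a median of 0.260 to 0.398 RPKM. Only humanized mouse 6 lay below the highest germ-free mice, 2 and 4, yet the interval of the difference was wide. The LFC of 1.11 (SE 0.40, 95% interval 0.25 to 1.97, FDR = 0.0291, edgeR exact test) did not pass. It did pass without germ-free mouse 4, at an LFC of 1.39 (FDR = 0.00971).

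Hcar2 encodes HCAR2 (GPR109A), a receptor of butyrate, β-hydroxybutyrate and niacin, and lies at chr5:123863570-123865516. It rested on 23 to 97 reads per mouse. Germ-free mice had 0.603, 0.550, 0.343, 0.740 and 0.514 RPKM, and humanized mice ran from 0.249 through a median of 0.673 to 1.05 RPKM. Again the humanized range enclosed the germ-free one, with mouse 5 lowest and mouse 3 highest of all 11. The LFC was 0.29 (SE 0.31, 95% interval −0.38 to 0.97, FDR = 0.570, edgeR exact test), and it ran from 0.12 without humanized mouse 3 to 0.47 without humanized mouse 5, with no pass in either case.

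The ratio of Ffar2 to Ffar3 within a mouse was 91.2 in germ-free and 38.2 in humanized mice, a log2 difference of −1.26 (exact permutation p = 0.00649, adjusted 0.0162, n = 5 and 6) with overlapping ranges of 41.0 to 199 and 27.7 to 52.0. It inherits the low counts of Ffar3, and without humanized mouse 1, 4, 5 or 6 the adjusted exact permutation p was 0.0595. Markers of cells that are known to carry these receptors moved in different ways. Of 9 enteroendocrine markers 2 were called higher and 4 lower, with a summed level of 492 to 722 CPM in germ-free and 438 to 689 CPM in humanized mice. The summed level of 8 neutrophil markers was 2.12 to 2.68 and 1.095 to 5.95 CPM, with S100a8, S100a9, Mpo, Ngp and Camp too low to be tested. Of 8 macrophage markers 1 was called lower (198 to 256 and 63.0 to 359 CPM summed), and of 7 adipocyte markers, 4 of which could be tested, 1 was called higher (57.9 to 118 and 74.9 to 111 CPM summed). The macrophage call, Mrc1, was lost in the quasi-likelihood test (FDR = 0.0172) and without germ-free mouse 4 or humanized mouse 1. The 7 enteric neuron markers summed to 26.3 to 31.9 CPM in germ-free and 5.18 to 13.7 CPM in humanized mice, 6 of them called lower. The part of these cells in the receptor levels was not tested.

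Acss1 encodes the mitochondrial acetyl-CoA synthetase and lies at chr2:150618105-150668500 with 14 exons. Germ-free mice had 37.5, 37.4, 33.9, 33.5 and 33.0 RPKM, and humanized mice ran from 35.7 through a median of 40.7 to 49.0 RPKM. Only humanized mice 3 and 6 fell within the germ-free range. The LFC was 0.22 (SE 0.08, 95% interval 0.04 to 0.40, FDR = 0.0653, edgeR exact test), did not pass, and turned to −0.04 with epithelial scaling and to −0.67 with the sum of surface colonocyte markers, where it was called lower (FDR = 0.00021). That sum called 78.1% of all tested genes lower and placed their median LFC at −0.87.

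Acss2 encodes the cytosolic and nuclear acetyl-CoA synthetase and lies at chr2:155517948-155585724. Germ-free mice had 13.2, 14.1, 14.1, 12.8 and 12.1 RPKM, and humanized mice ran from 11.9 through a median of 13.7 to 15.8 RPKM. The humanized range enclosed the germ-free range, and the LFC was 0.08 (SE 0.08, 95% interval −0.09 to 0.25, FDR = 0.577, edgeR exact test). It turned to −0.11 with total counts, −0.18 with epithelial scaling and −0.80 with the sum of surface colonocyte markers, of which the last was called lower (FDR = 1.2e-05). Under this last scaling 78.1% of all tested genes were called lower, with a median LFC of −0.87 over all tested genes. The library kit does not mark strand, and exons of Acss2 share 395 bases with Gss, 335 with Acss2os and 197 with Ggt7 on the other strand, while Acss1 shares 113 with E130215H24Rik, so reads there cannot be told apart. The ratio of Acss1 to Acss2 was 2.64 and 2.91, a log2 difference of 0.14 (exact permutation p = 0.143, adjusted 0.179).

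By level, Bsg led in both groups and Slc16a3, Hcar2 and Ffar3 came last. In germ-free mice Slc5a8 and Acss1 followed Bsg with overlapping ranges, Slc16a1 stood below both, and Acss2 and Ffar2 came next with overlapping ranges. In humanized mice the ranges of Slc5a8 and Slc16a1 overlapped, and so did those of Slc16a1 and Acss1, although Slc16a1 exceeded Acss1 within each of the 6 mice. The place of Acss2 in this order rests on gene length. The deposited length of Acss2 is 10163 bases, the union of the exons of 10 annotated transcripts, and 3.47 times that of its principal coding transcript of 2931 bases. With principal transcript lengths Acss2 had 46.0 RPKM in germ-free and 48.5 RPKM in humanized mice against 40.0 and 46.6 RPKM for Acss1, above Slc5a8 (35.8 RPKM) and Slc16a1 (28.4 RPKM) in germ-free mice, and the ratio of Acss1 to Acss2 became 0.870 and 0.959. Lengths do not enter the LFC values.

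**Figure D3:**
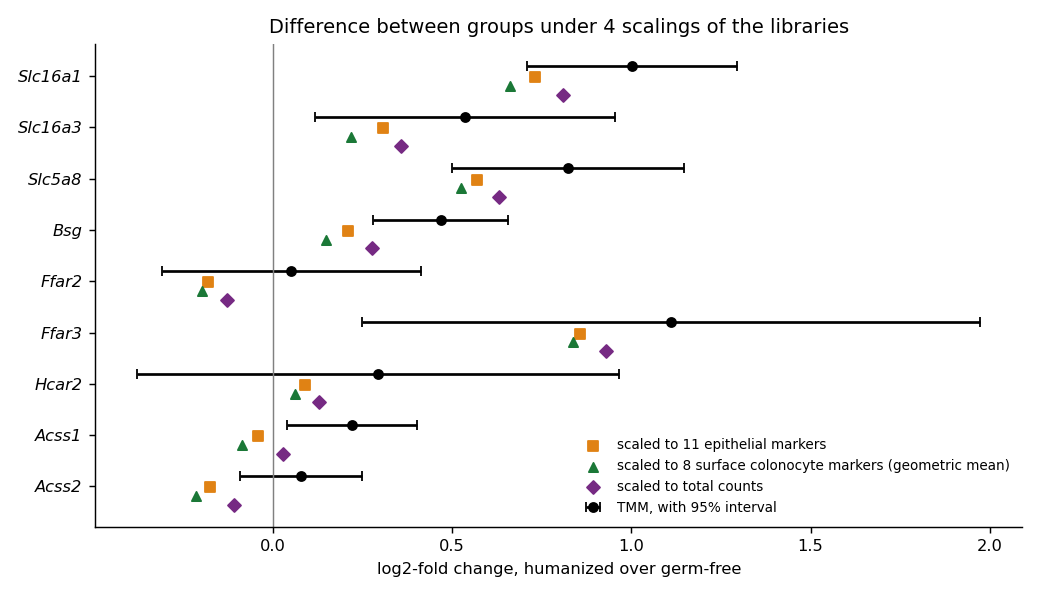
LFC of humanized over germ-free mice for each of the 9 genes. Black points with bars are the LFC and 95% interval of edgeR's quasi-likelihood fit with TMM, and coloured symbols are the LFC of the exact test when libraries are scaled to 11 epithelial markers, to the geometric mean of 8 surface colonocyte markers or to total counts. Slc16a1, Slc16a3, Slc5a8, Bsg, Ffar3 and Hcar2 lie above 0 under these 4 scalings, while Ffar2 and Acss2 change sign under the other 3 and Acss1 under both marker scalings.

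Colonocytes take up short-chain fatty acids through MCT1 and SMCT1, so carrier levels were set beside markers of the epithelium and of surface colonocytes. The cells that express the carriers were not determined in this whole tissue. Of the 11 epithelial markers 3 were called higher (Krt18, Lgals4 and Elf3) and none lower. Of the 8 surface colonocyte markers 3 were called higher (Car1, Muc3 and Ceacam20) and none lower. The Muc3 call (FDR = 0.00964, edgeR exact test) was lost in the quasi-likelihood test (FDR = 0.0324). The summed level of the 8 markers was 5411 to 7600 CPM in germ-free and 10160 to 17480 CPM in humanized mice. Car1, which encodes carbonic anhydrase 1, made up 49.4% to 62.0% of that sum in germ-free and 69.6% to 81.4% in humanized mice. The other 7 markers summed to 2854 ± 192 CPM (SD, n = 5) and 2900 ± 808 CPM (SD, n = 6). Scaled to the full sum, Slc16a1 had an LFC of 0.08 (FDR = 0.564), Slc5a8 −0.06 (FDR = 0.769) and Bsg −0.42 (FDR = 0.00479). None of these 3 was called higher under this scaling, and Bsg was called lower, as were Ffar2 at −0.79 (FDR = 0.00248), Acss1 at −0.67 (FDR = 0.00021) and Acss2 at −0.80 (FDR = 1.2e-05). Of all tested genes, 0.977% were called higher and 78.1% lower under it. It placed the median of all tested genes at −0.87, against −0.29 with the geometric mean, −0.24 with epithelial scaling and −0.18 with total counts. The part of surface cells in the carrier levels was not tested.

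**Figure D4:**
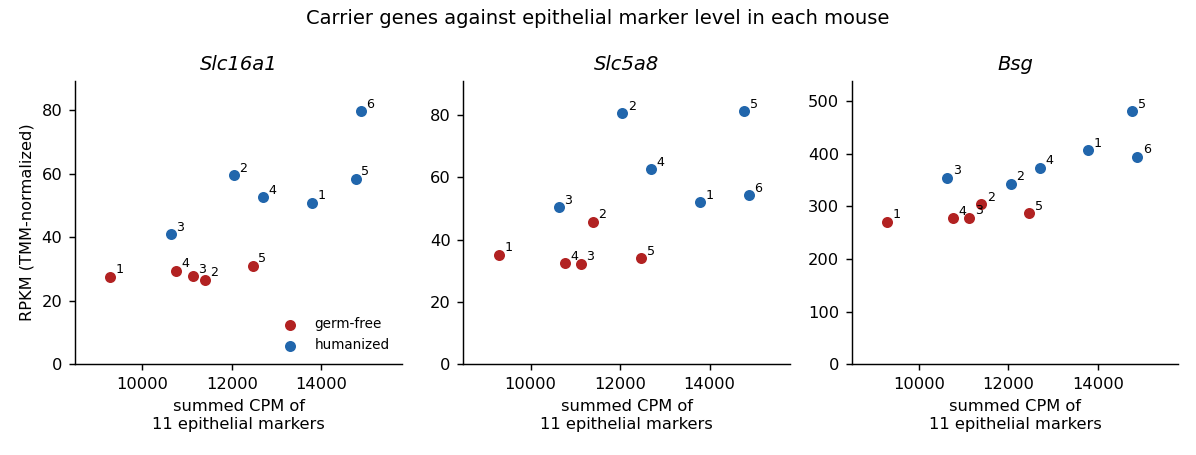
RPKM of Slc16a1, Slc5a8 and Bsg (vertical, from 0) against the summed CPM of 11 epithelial markers (horizontal, not from 0) in each germ-free (red) and humanized (blue) mouse, numbered by mouse. The groups overlap on the horizontal axis, between 10640 and 12470 CPM, and do not overlap on the vertical axis.

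The wider pathway was described through 7 lists of 64 genes, 56 of them tested, of which 16 were called higher (28.6%, against 9.2% of all tested genes) and 7 lower (12.5%, against 10.1%). With epithelial scaling 8 were higher and 13 lower, against 2.47% and 14.1% of all tested genes, and with total counts 11 and 13, against 3.89% and 18.2%. Of 12 other carriers tested, 1 was higher, 2 lower and 9 were not called, with a median LFC of −0.23. Slc16a9 (MCT9, linked to carnitine transport) rose from 3.85 ± 0.330 to 10.6 ± 1.70 RPKM (LFC 1.46, SE 0.11, FDR = 6.75e-29). Slc16a10, an aromatic amino acid carrier, fell by 0.64 on the log2 scale (FDR = 0.000141), and Slc16a6 by 0.51 (FDR = 0.00548). The groups overlapped for Slc16a6, and its call was lost in the quasi-likelihood test (FDR = 0.0162). Slc16a5, the most abundant, had 32.1 ± 3.21 and 28.0 ± 6.17 RPKM and was not called (FDR = 0.315). Of 5 other acid-sensing receptors, only Hcar1, the lactate receptor, was called, and it fell from 1.63 ± 0.123 to 0.852 ± 0.317 RPKM (LFC −0.94, FDR = 0.00309). This call was lost in the quasi-likelihood test (FDR = 0.0144) and without germ-free mouse 1 or 4. Ffar4, the long-chain fatty acid receptor and the most abundant of these 5, had 30.5 ± 4.45 and 24.2 ± 4.55 RPKM (FDR = 0.0599). Of 7 receptor signalling partners only Gnai1, an inhibitory G protein subunit, was called, and it fell by 0.59 (FDR = 0.00219), a call lost in the quasi-likelihood test (FDR = 0.0106), with the geometric mean of surface colonocyte markers and without germ-free mouse 3. Gna11, the most abundant partner, had 111 ± 5.99 and 113 ± 21.9 RPKM.

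In the list of butyrate activation and β-oxidation, 7 of 11 tested genes were called higher and none lower, against 9.2% and 10.1% of all tested genes, with a median LFC of 0.49, and 2 were called with the geometric mean of surface colonocyte markers, which called 1.65% of all tested genes higher and 11% lower. Of the 7, Acads and Hadh act on short-chain substrates, Hadha and Hadhb on long ones, and Etfa, Etfb and Etfdh carry electrons for acyl-CoA dehydrogenases of every chain length. Hadhb and Hadha, the subunits of the trifunctional protein, rose most. Hadhb went from 18.8 ± 1.31 to 39.8 ± 3.99 RPKM (LFC 1.08, SE 0.08, FDR = 3.47e-30) and Hadha from 33.1 ± 2.49 to 67.0 ± 7.84 RPKM (LFC 1.02, SE 0.09, FDR = 1.66e-22). Etfa rose by an LFC of 0.61 (FDR = 4.21e-08). Acads, the dehydrogenase of butyryl-CoA, which had the highest mean level of the list in humanized mice, rose from 103 ± 2.92 to 145 ± 18.8 RPKM (LFC 0.49, SE 0.09, FDR = 6.27e-06). Acsm3, the one tested gene of the acyl-CoA synthetases that activate butyrate, had an LFC of −0.31 and was not called (FDR = 0.0117), and Acsm1 and Acsm2 had no read in any mouse. Of 7 propionate genes 3 were higher and 1 lower, with a median LFC of 0.11. Pcca, a subunit of propionyl-CoA carboxylase, rose by 0.44 (FDR = 1.70e-06) and its partner subunit Pccb, the most abundant, had an LFC of 0.06 (FDR = 0.692). Mmaa, which serves the cobalamin-dependent mutase, rose by 0.44 (FDR = 0.000459). Acss3, a mitochondrial synthetase that prefers propionate, fell from 0.383 ± 0.121 to 0.174 ± 0.0413 RPKM (LFC −1.13, FDR = 0.000323).

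Among 6 tested genes of cytosolic acetyl-CoA use, 1 was higher and 1 lower, with a median LFC of −0.14. Acacb, the acetyl-CoA carboxylase whose malonyl-CoA restrains mitochondrial fatty acid entry, rose from 1.46 ± 0.405 to 4.34 ± 0.709 RPKM (LFC 1.57, SE 0.17, FDR = 1.63e-15), and Acaca, that of fatty acid synthesis, fell by 0.36 (FDR = 4.22e-05). Hmgcs1 was the most abundant and was not called (LFC 0.10, FDR = 0.653). Of 8 genes of lactate and pyruvate 4 were higher and 1 lower, with a median LFC of 0.26. Pdk4, which inhibits pyruvate dehydrogenase, rose by 1.41 (FDR = 6.05e-09), and the lactate dehydrogenase subunit Ldhb fell by 1.23 (FDR = 8.78e-15). Ldha, the other subunit and the most abundant of the list, rose from 231 ± 16.3 to 315 ± 44.2 RPKM (LFC 0.45, SE 0.10, FDR = 0.000237).

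**Figure D5:**
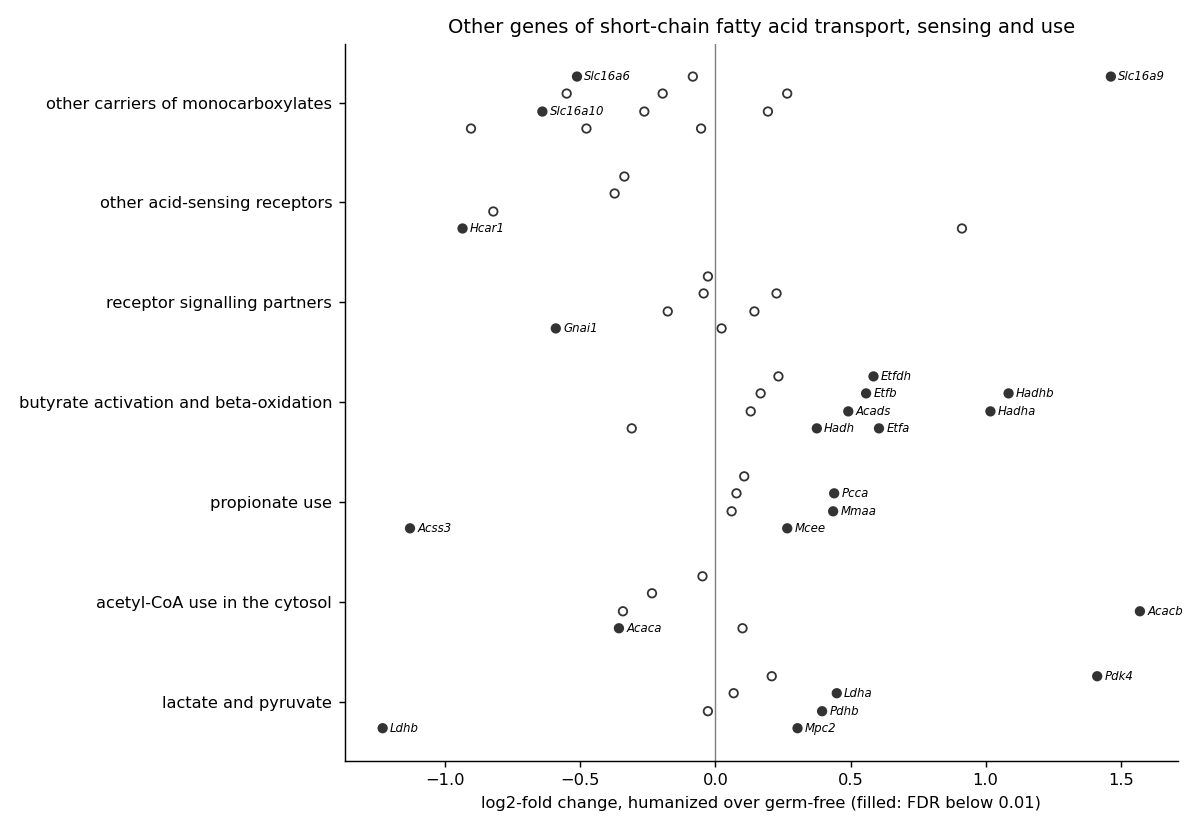
LFC of humanized over germ-free mice for the 56 tested genes of 7 pathway lists, 1 row of points per list, filled and named where the FDR is below 0.01. All 7 filled points of the list of butyrate activation and β-oxidation lie to the right of 0, while the receptor and signalling rows have 1 filled point each, to the left.

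The genes whose level followed each of the 9 most closely from mouse to mouse, after the group means were taken off, were found among about 12343 genes with a mean of at least 5 CPM. Pearson's r over the 11 mice is given as a description, and all values share the libraries and their scaling. Slc16a1 was closest to Me2 (0.970), a mitochondrial malic enzyme, Pls1 (0.947) and Usp33 (0.941), and Slc5a8 to Gk5 (0.952), 1600012H06Rik (0.923) and Lias (0.914). Bsg was closest to Prdx5 (0.990), Cox8a (0.983) and Gm12338 (0.980). Ffar2 was closest to Lgi4 (0.977), Tanc1 (0.949) and Fxyd3 (0.947), and Lgi4 and Fxyd3 lie 236 and 244 kb from it on chromosome 7. Acss1 was closest to Slc39a1 (0.957), Ift52 (0.954) and Atp6v1b2 (0.952). Hcar2 was closest to Dsel (0.949), Dbn1 (0.944) and Gm17080 (0.937). The closest genes of Slc16a3 (Ier3, Rap2b and Crlf3), Acss2 (Ints9, Got2-ps1 and Tmem63a) and Ffar3 (Mars2, Cuedc2 and Ccbl2) lay between 0.815 and 0.894. Among the 9 genes themselves, Slc5a8 and Acss1 moved together (0.749), while Bsg and Hcar2 (−0.820) and Slc16a3 and Acss2 (−0.757) moved apart. Hcar2 rests on 23 to 97 reads per mouse. Slc16a1 and Slc5a8 hardly followed each other (0.142).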

How the data were processed

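The authors aligned 101 bp paired-end reads of unstranded poly(A) libraries to mm10 with TopHat2 2.1.0 and Bowtie2 2.2.3, counted reads per gene with featureCounts (Subread 1.4.6-p5), and deposited raw counts without normalization. The tests followed the methods of the paper, with edgeR 4.0.16 under R 4.3.3: filterByExpr at its defaults (minimum count 10), TMM, exact test, Benjamini–Hochberg correction and FDR below 0.01. Standard errors and 95% intervals are from edgeR's quasi-likelihood fit. RPKM used the deposited lengths, which equal the union of GENCODE M21 exons in 7 of the 9 genes and in 74.7% of 42462 genes, and so include non-coding exons. Ratios took 0.5 read as offset. The smallest exact permutation p that 5 against 6 mice allow is 0.00216. Counts varied between mice of a group far beyond sampling noise (mean chi-square per gene 21.3 to 126), and each label names a separate mouse.

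The 9 genes and all lists were chosen with earlier results of these data known. The text names the 9 genes, the 3 called genes with the largest absolute LFC and the most abundant gene of each pathway list, and the 3 genes closest to each of the 9. Marker genes, Hadh, Etfb, Etfdh, Acsm1, Acsm2 and Acsm3 are named outside this rule, after their values were seen, the last 6 to say what the butyrate list holds. No sequencing batch is given in the labels or methods. Alternatives were the quasi-likelihood test, DESeq2 1.42.0, other normalizations and filters, other thresholds, each mouse left out and a replicate block. Both surface colonocyte scalings, humanized mice 5 and 6 left out together, and principal transcript lengths were added after seeing the data. Scripts were tested on simulated data.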

Additional observations from a re-analysis of the deposited data

Results flagged for a closer look

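Over 28 groups (9 levels and 5 ratios in 2 groups of mice), a gap of 1 mouse to its group beyond Dixon's 95% critical value was found 3 times, and chance gives about 1 in 20. Slc5a8 in germ-free mouse 2 was 45.6 RPKM, with the next mouse at 35.1 RPKM. The ratio of Slc5a8 to Slc16a1 in the same mouse was 1.72, with the next at 1.27. The ratio of Slc16a3 to Slc16a1 in humanized mouse 3 was 0.0350, with the next at 0.0211. Without germ-free mouse 2 the LFC of Slc5a8 was 0.92.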

How the results depend on the processing

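Over the 9 genes, the 5 ratios and the counts of called genes, 391 of 444 values recomputed under an alternative kept their direction and side of the threshold or, for counts, stayed within 1.5 times. Calls among the 9 genes fell to 1 at an absolute LFC above 1 (Slc5a8 at 0.82 and Bsg at 0.47 no longer passed) and to 1 with the geometric mean of surface colonocyte markers (Slc5a8 0.52, Bsg 0.15). With the sum of these markers, which called 194 of all tested genes higher and 15508 (78.1%) lower, 0 of the 9 were higher and 4 lower, with an LFC of 0.080 for Slc16a1, −0.35 for Slc16a3, −0.058 for Slc5a8, −0.42 for Bsg, −0.79 for Ffar2, −0.53 for Hcar2, −0.67 for Acss1 and −0.80 for Acss2. Epithelial scaling gave 0.21 for Bsg, −0.18 for Ffar2, −0.041 for Acss1 and −0.18 for Acss2, total counts gave −0.13 for Ffar2 and −0.11 for Acss2, and the geometric mean gave −0.20 for Ffar2, −0.087 for Acss1 and −0.21 for Acss2. At FDR below 0.05 Ffar3 passed with its LFC of 1.11.

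With 1 mouse left out, the LFC ran from −0.043 to 0.13 for Ffar2 (below 0 without humanized mouse 1 or 4) and from 0.88 to 1.39 for Ffar3, the ratio of Slc16a3 to Slc16a1 from −0.64 to −0.38, and that of Ffar2 to Ffar3 from −1.55 to −0.98. Hcar2 ran from 0.12 to 0.47 and the ratio of Slc5a8 to Slc16a1 from −0.23 to −0.026, and neither passed without any 1 mouse. Slc16a1, Slc5a8 and Bsg passed without any 1 mouse, with an LFC of 0.88 to 1.08, 0.74 to 0.92 and 0.40 to 0.50.

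Replicate numbers name different mice, and the deviations of same-numbered mice correlated at −0.14 to 0.09. A replicate block in the quasi-likelihood test lowered the calls over all genes to 1012, from 2699 without it, and gave Bsg an LFC of 0.46 (FDR = 0.0217) that no longer passed. It left 13 pathway genes called, 10 higher and 3 lower. Against 23 pathway genes called (16 higher, 7 lower), 46 were called with the sum of surface markers (3 higher, 43 lower, against the same 78.1% of all tested genes lower), 13 with their geometric mean (5 higher) and 7 at an absolute LFC above 1 (5 higher, 2 lower). Epithelial scaling called 8 higher and 13 lower, total counts 13 lower, the quasi-likelihood test 4 lower and FDR below 0.05 11 lower. Under the settings other than the surface sum and the absolute LFC, calls ran from 2 to 5 in the other carriers, 0 to 2 in the other receptors and in the signalling partners, 2 to 9 in butyrate activation and β-oxidation, 1 to 4 in propionate use, 2 to 3 in cytosolic acetyl-CoA use and 2 to 6 in lactate and pyruvate. Over all genes, calls numbered 3826 in the exact test, of which 1827 were higher and 1999 lower, against 773 higher and 3609 lower with total counts, 491 and 2807 with epithelial scaling, and 327 and 2194 with the geometric mean. The cause of these changes was not tested. Under the same settings, marker calls ran from 0 to 4 in epithelium, 4 to 9 in smooth muscle markers, 2 to 7 in enteric neuron markers and 0 to 6 in B and plasma cell markers, with 0 in epithelium and in B and plasma cells under the replicate block. They ran from 2 to 4 in surface colonocyte, 4 to 7 in enteroendocrine, 0 to 2 in neutrophil, 0 to 2 in macrophage and 1 to 2 in adipocyte markers. Ffar3 rests on 6 to 28 reads per mouse and Hcar2 on 23 to 97, and their 95% intervals reach 1.97 and 0.97.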
